A study of Mus musculus with 4 samples.

Results

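The genes described here are the immunoglobulin light chain genes of the mouse. They were taken as every listed gene whose symbol begins with Igkv, Igkc, Iglv or Iglc, which gave 168 of 32344 genes. They comprise 160 kappa variable (Igkv) genes, the kappa constant gene Igkc, 3 lambda variable (Iglv) genes and 4 lambda constant (Iglc) genes. All 168 matched the GENCODE vM21 annotation by gene ID, on the mm10 build that the submitters' processing notes name.

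Single-cell RNA profiles were collected from CD45+ immune cells sorted from mouse liver, in 4 libraries. The deletion groups were GS(+/D)Hep, for glutamine synthetase, and URI(+/D)Hep, for the chaperone URI, with 1 library each. Their genotype labels, GS(+/delta)Hep and URI(+/delta)Hep, denote 1 deleted copy in hepatocytes, a cell type outside the sorted fraction. The control group was WT, with 2 libraries. All groups, WT included, had received tamoxifen for 1 week, and each library pooled cells of 5 mice, so differences between animals within a library were not measured. Strain, age, sex and the driver of the deletion are not given in the sources used here. Libraries are called GS, URI, WT replicate 1 and WT replicate 2, and values in a row of 4 are in that order.

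A light chain pairs with a heavy chain to form an antibody or B cell receptor. A developing B cell joins 1 V segment to a J segment, first mostly at the kappa locus and then, where kappa fails, at the lambda locus, so that a mature cell usually carries 1 light chain of 1 isotype. In mice most B cells carry kappa. Resting B cells hold modest amounts of this RNA for their receptor, and plasma cells hold very large amounts for secretion.

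The assay hybridised probes to fixed RNA and counted unique molecular identifiers (UMIs), each standing for 1 ligated probe molecule. Which stretch of each gene carries a probe is not given in the sources used here. Levels are therefore compared between cells or libraries for the same gene, and not in absolute terms between genes. The 60-base stretches below were chosen as those with the most differences between the leading gene of each set and the gene shown next. They lie in coding exons, are read 5′ to 3′ from GENCODE vM21 on mm10, and have in capitals the bases that differ from the leading gene of each set. The lambda constant genes come first because several results below give them separately. The isotype calls use the sum of Iglc1 to Iglc3.

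Iglc1, chr16:19061963-19062022, minus strand: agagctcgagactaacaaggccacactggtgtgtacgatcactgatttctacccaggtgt
Iglc2, chr16:19198744-19198803, minus strand: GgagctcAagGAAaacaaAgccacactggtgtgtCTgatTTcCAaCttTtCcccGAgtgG
Iglc3, chr16:19065573-19065632, minus strand: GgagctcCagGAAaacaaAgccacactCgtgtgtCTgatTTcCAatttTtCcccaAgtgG

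In these stretches Iglc2 differed from Iglc1 at 18 bases and Iglc3 at 17. Over the aligned coding sequence Iglc2 and Iglc3 were 96.5% identical, while Iglc1 was 74.8% identical to Iglc2 and 75.4% to Iglc3. Signal of Iglc2 and Iglc3 can thus be mixed by probe cross-hybridisation, which was not tested, and Iglc1 is the more distinct sequence. Iglc4 was 86.5% identical to Iglc1.

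Igkv3-5, chr6:70663821-70663880, plus strand: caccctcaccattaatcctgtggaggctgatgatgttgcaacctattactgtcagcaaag
Igkv3-10, chr6:70573156-70573215, plus strand: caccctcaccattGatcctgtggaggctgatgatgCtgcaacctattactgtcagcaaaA

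Igkv3-5 held more UMIs than any other V gene, and Igkv3-10, its closest relative (98.3% identical), held 0. The 3 differences shown are the most that any aligned 60-base stretch of the pair had. RNA of the pair may not be told apart by these counts, which was not tested, since the probe positions are not given.

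Igkv8-30, chr6:70117267-70117326, minus strand: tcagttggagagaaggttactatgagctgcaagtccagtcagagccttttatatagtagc
Igkv8-27, chr6:70172010-70172069, minus strand: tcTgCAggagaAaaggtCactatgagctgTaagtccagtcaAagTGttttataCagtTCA

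Igkv8-30 and Igkv8-27 are of 1 family, differ at 13 of these bases, are 88.1% identical over their aligned sequence, and both had UMIs. V gene names below stand for the probe that was counted, with this limit.

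In barcodes of at least 500 UMIs, 33 of the 168 genes had at least 1 UMI, against 15785 of all 32344. They were 28 of 160 Igkv genes, Igkc and all 4 Iglc genes. Iglv1, Iglv2 and Iglv3 were at 0, as were 132 Igkv genes, among them all 60 annotated Igkv pseudogenes. Over 32878 barcodes a count of 0 allows a share of up to 0.00912% of barcodes with a UMI, and whether these genes have a probe is not given in the sources used here. The detected V genes belonged to 15 of the 20 listed families. Detected V genes had a median identity of 93.5% to their closest V gene and the 72 undetected functional ones 94.5%, so the groups were alike in this respect.

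Igkc (chr6:70726435-70726966, plus strand) held 339745 UMIs, or 86.8% of light chain UMIs, in 13444 barcodes. The Iglc genes, in chr16:19061618-19200351, held 8.34% and the V genes 4.89%. The V genes with UMIs spread over the kappa locus, the farthest lying 3170219 bases upstream of Igkc and the nearest, Igkv3-5, 62540 bases upstream. The 28 comprised 7 on the plus strand and 21 on the minus strand.

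The libraries held 7846, 9096, 8483 and 7453 barcodes of at least 500 UMIs, with medians of 4448, 4973, 3763 and 2659 UMIs. No full barcode was shared between libraries. The libraries were multiplexed, and 23.8% of the 24835 droplet sequences appeared in more than 1 library. WT replicate 2 was the shallowest library and stood apart in the light chain genes, as given below.

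B cells were barcodes with at least 2 UMIs of Cd79a and Cd79b, the signalling partners of the receptor, and under 3 UMIs of Jchain, which joins antibody into polymers. They numbered 1738, 2788, 2421 and 2202. Ms4a1, encoding CD20, was at 370 to 648 UMIs per 1000000 (CPM) in them, Pax5, the B cell identity factor, at 1004 to 1118 and Cd22, an inhibitory receptor, at 423 to 587. T cell markers were also present in them, 6 of 6 at a sum of 519 to 1718 CPM, and neutrophil markers, 4 of 4 at 2589 to 3237 CPM. Plasma cells were barcodes with at least 3 Jchain UMIs, 81, 16, 104 and 20 in number. T cells (Cd3d, Cd3e and Cd3g of at least 2 UMIs, with 0 UMIs of Cd79a and Cd79b and under 3 of Jchain) served as a class that should lack light chain RNA.

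Among the 221 plasma barcodes, 63 had at least 5000 UMIs (13, 14, 20 and 16) and the others fewer (68, 2, 84 and 4). This limit was set after the data were seen. Summed per library, the 63 large barcodes carried 6 of 6 plasma cell markers at 17329 to 26861 CPM, and are the plasma cells described below. T cell markers summed to 745 to 1977 CPM in them. Neutrophil markers summed to 2233 CPM in WT replicate 1 and to 122 to 274 CPM in the other libraries. Such sums do not show that each barcode was a plasma cell. In 7 of the 63 Jchain was under 10 UMIs, and 1 of those, in WT replicate 1, had 0 Igkc UMIs. All 63 are kept in the V gene and heavy chain counts below. The small barcodes are described separately.

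Igkc rose in level from T cells to B cells to plasma cells in each of the 4 libraries. In T cells it was at 80.2, 47.1, 56.1 and 46.8 CPM. In B cells it was at 5095, 4549, 6486 and 2547 CPM, which is 63.5, 96.7, 116 and 54.4 times the T cell level. In plasma cells it reached 159312, 85214, 112311 and 92929 CPM, or 31.3, 18.7, 17.3 and 36.5 times the B cell level. The classes did not overlap between libraries. Neutrophils lay at the T cell level, at 38.1 to 86.3 CPM. Free RNA, read from barcodes under 100 UMIs, held Igkc at 2455, 2163, 3560 and 1463 CPM, in the same order over the libraries as the B cell level.

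**Figure D1:**
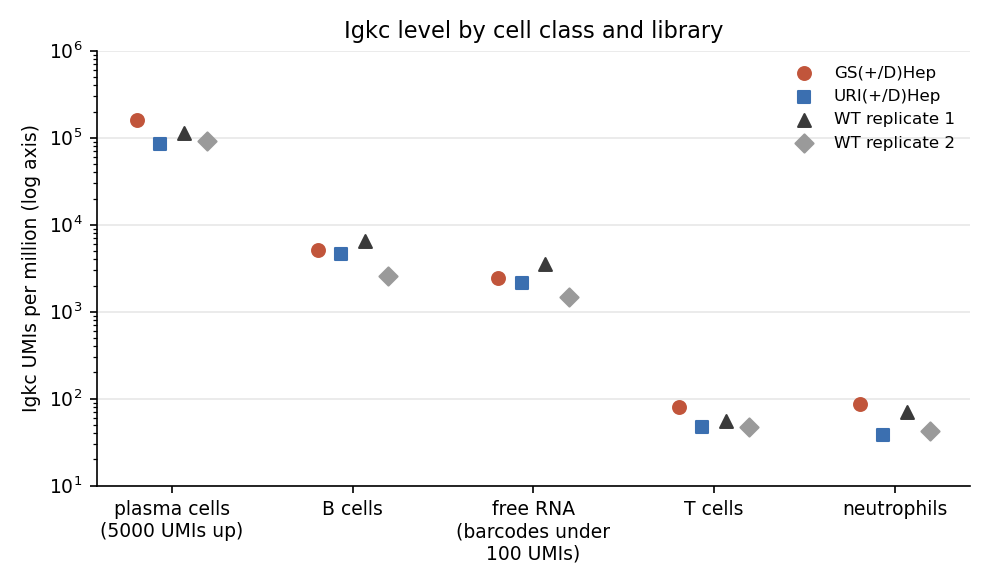
Igkc UMIs per 1000000 (log axis) in 4 cell classes and in free RNA, 1 point per library. Plasma cells of at least 5000 UMIs lay between 85214 and 159312, B cells between 2547 and 6486 and T cells between 46.8 and 80.2.

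Igkc was found in 90.7%, 90.6%, 91.5% and 90.1% of B cells, at median depths of 3814, 4298, 3034 and 2213.5 UMIs. In T cells, at median depths of 5130.5, 5932, 4517.5 and 3299 UMIs, the background was 20.04%, 21.3%, 14.6% and 13.8%. With each barcode thinned to 1000 UMIs the shares were 86.4%, 84.3%, 88.5% and 82.5% in B cells and 5.47%, 5.78%, 4.26% and 3.78% in T cells. Thinning left out 120, 189, 272 and 117 B cells and 185, 121, 117 and 60 T cells of lower depth. Nearly all of the B cell share thus stood above background in each library.

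The amount per B cell differed more than the share did. The median was 19, 16 and 19 Igkc UMIs in the GS, URI and WT replicate 1 libraries and 6 in WT replicate 2, and after thinning 5, 4, 6 and 2. At least 10 Igkc UMIs were found in 68.6%, 60.2%, 70.4% and 26.3% of B cells. WT replicate 2 was thus the low library also at equal depth.

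This gap between the WT libraries ran through the light chain genes. The level in WT replicate 1 over that in WT replicate 2 was 2.55 for Igkc, 2.31 for Iglc1, 1.52 for Iglc2, 2.70 for Iglc3 and 2.05 for the summed Igkv genes. Over the 29 light chain genes tested in B cells, the median log2 difference (WT replicate 2 minus WT replicate 1) was -0.73, against -0.01 over all genes tested. Ighd, the IgD constant gene of naive B cells, had a ratio of 1.95, Cd79b 1.72 and Ms4a1 1.75. Ighm, the IgM constant gene, was at 1.27 and Pax5 at 0.98. T cell markers in the B cell class of WT replicate 1 summed to 1718 CPM, against 519 in that of WT replicate 2, and their part in the gap was not tested.

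The lambda constant genes lay in the same library order as Igkc. In B cells Iglc1 was at 303, 241, 343 and 148 CPM. Iglc2 was at 357, 347, 405 and 267 CPM and Iglc3 at 216, 153, 242 and 89.5 CPM. WT replicate 1 was highest and WT replicate 2 lowest for all 3 genes. Iglc4 had 20, 28, 30 and 4 B cells with a UMI (2.68, 2.19, 3.52 and 0.656 CPM) and at most 2 UMIs in any barcode.

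The share of B cells with a UMI was above background for the 3 main lambda genes. Iglc1 was found in 24.97%, 26.0%, 25.2% and 15.9% of B cells, and Iglc2 in 60.6%, 60.5%, 58.9% and 44.6%. Iglc3 was in 48.0%, 43.1%, 47.8% and 19.8%. The highest share in T cells was 1.504% for Iglc1, 1.39% for Iglc2 and 0.67% for Iglc3, so all were above background. Iglc1 reached 10 UMIs in 69, 98, 104 and 10 B cells, while Iglc2 did so in 16, 37, 20 and 3 and Iglc3 in 9, 2, 7 and 0. These counts follow each gene's probe as well as its RNA.

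A B cell with at least 10 UMIs of Igkc and Iglc1 to Iglc3 was called kappa or lambda where that isotype held at least 90% of them, and mixed otherwise. Lambda cells made up 34 of 701 single-isotype B cells in the GS library, 4.85% (exact Clopper-Pearson 95% interval 3.38% to 6.71%). The URI library had 57 of 980, 5.82% (4.43% to 7.47%). WT replicate 1 had 50 of 1052, 4.75% (3.55% to 6.22%), and WT replicate 2 had 12 of 409, 2.93% (1.53% to 5.07%). These and all other intervals cover counting error only. All 4 intervals overlapped, and the WT libraries differed from each other by more than the GS library did from WT replicate 1.

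Mixed cells were nearly as many as single-isotype cells, at 46.6%, 47.5%, 43.3% and 45.5% of the B cells that had at least 10 such UMIs. The lambda genes' median share per cell was 10.0%, 10.3%, 9.34% and 10.0%, at the limit itself, so the number of mixed cells rests on where the limit stands. By simple majority, added after the data were seen, the lambda share was 6.40%, 5.999%, 5.56% and 4.27%.

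**Figure D2:**
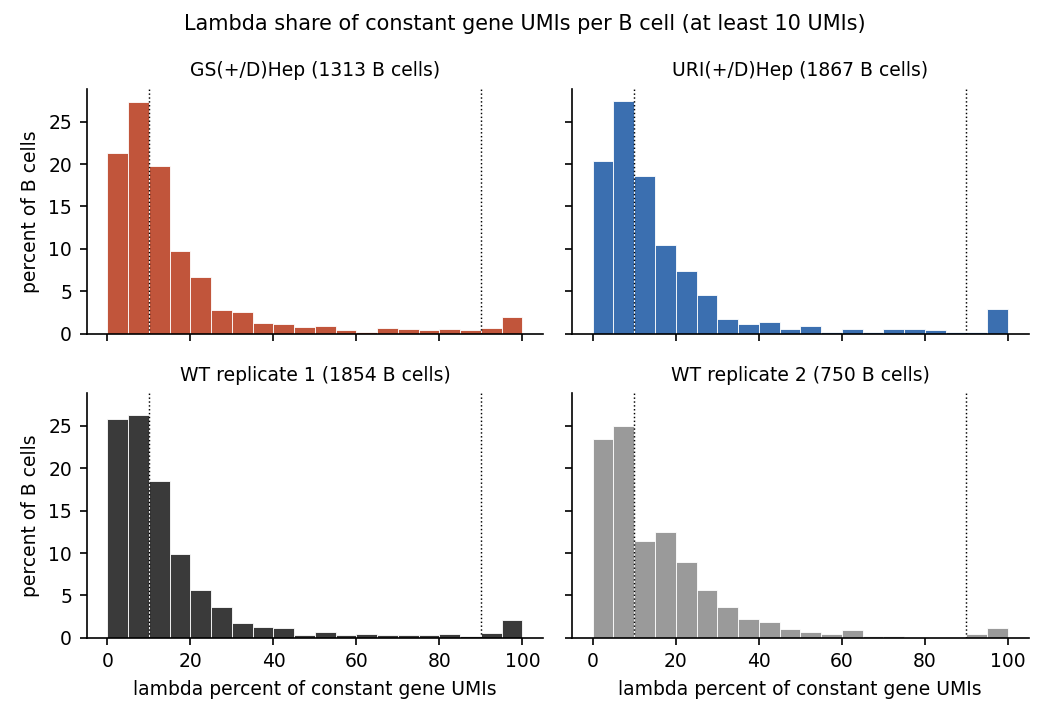
Histograms of the lambda percent of constant gene UMIs in B cells with at least 10 such UMIs, 1 panel per library (x axis in bins of 5 percentage points, y axis percent of B cells). Most cells were spread over the low end, with medians of 9.34% to 10.3%, and a small separate group lay near 100%.

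Kappa B cells carried lambda UMIs mostly of Iglc2 and Iglc3. Per 100 Igkc UMIs they had 3.197, 3.196, 2.74 and 3.14 of Iglc2 and 2.02, 1.87, 2.06 and 1.13 of Iglc3, but 0.527, 0.728, 0.578 and 0.447 of Iglc1. In plasma cells called kappa (13, 13, 18 and 15) Iglc2 was at 0.223, 0.231, 0.279 and 0.350 per 100 Igkc UMIs. Iglc1 there was at 0.303, 0.409, 0.312 and 0.226. Per 100 Igkc UMIs, Iglc2 thus lay far lower in kappa plasma cells than in kappa B cells. The kappa call itself caps the lambda share of a cell, and many B cells lay near that limit. The B cell ratios therefore depend on the limit, and the classes also differ in depth. Whether the Iglc2 signal in kappa B cells is lambda RNA or probe background was not tested.

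Lambda B cells were led by Iglc1 in 25 of 34, 47 of 57, 40 of 50 and 7 of 12 cells. None of these 153 cells had 3 or more Igkv UMIs, which allows a share of up to 1.96%. Of the 2989 kappa cells 566 had them, at 17.8%, 21.1%, 19.96% and 13.1% in the libraries, and mixed cells had nearly the same shares, at 17.5%, 19.8%, 21.4% and 12.6%. By their V gene signal the mixed cells therefore lay with kappa cells.

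Cells high in both isotypes were also counted. Of B cells with at least 10 Iglc1 UMIs, 29 of 69, 41 of 98, 43 of 104 and 3 of 10 also had at least 10 Igkc UMIs. Their median depth was 5112, 5773, 4175 and 5584 UMIs, against 4031, 4571, 2785 and 3397 for the other cells with that much Iglc1. Scrublet marked 13.8%, 9.76%, 4.65% and 33.3% of them as doublets (4, 4, 2 and 1 cells), against 10.4%, 9.86%, 11.2% and 9.04% of all B cells. The cells with both were thus deeper in every library. The doublet share was not higher in the URI and WT replicate 1 libraries, on 1 to 4 marked cells per library. Scrublet compares whole profiles, so a pair of B cells of unlike isotype could go unmarked. Whether these cells were such pairs was not tested.

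Plasma cells were almost all kappa. Lambda cells were 0 of 13, 0 of 13, 1 of 19 and 0 of 15 single-isotype plasma cells of at least 5000 UMIs, with upper exact 95% limits of 24.7%, 24.7%, 26.0% and 21.8%. With the small barcodes included they were 0 of 78, 0 of 14, 1 of 102 and 0 of 15. These counts leave out mixed barcodes, which numbered 0, 2, 0 and 1. Among the mixed, a small URI barcode had 54 Iglc1, 19 Iglc2 and 14 Igkc UMIs, a lambda majority. The 1 plasma cell called lambda, in WT replicate 1, had 993 Iglc2, 57 Iglc3 and 45 Igkc UMIs beside 4638 UMIs of Igha, the IgA constant gene. It alone held 993 of the 1096 Iglc2 UMIs in the plasma cells of its library. These limits do not separate plasma cells from the B cell shares above.

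A V gene was assigned to a barcode where the leading V gene had at least 3 UMIs and at least 50% of V UMIs. This gave 225, 369, 375 and 146 B cells, or 12.9%, 13.2%, 15.5% and 6.63%, spread over 19, 23, 23 and 16 V genes. Among the 1149 barcodes of any class with a V gene of at least 3 UMIs, 1105 had 1 such V gene, 43 had 2 and 1 had more. More than 1 such V gene was thus seen in 3.83% of these barcodes. Most B cells had no assigned V gene, so a further V gene could go unseen, and exclusive use was not tested.

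Igkv3-5 was the leading V gene of the largest share of assigned B cells in each library, at 24.9%, 22.5%, 24.3% and 26.7%. Igkv13-85 followed by mean share, at 10.2%, 11.7%, 16.8% and 10.3%, and Igkv8-30 was at 8.44%, 9.49%, 6.40% and 11.6%. Igkv8-30 ranked above Igkv13-85 in WT replicate 2 alone, where the intervals overlap widely. Igkv8-27 (5.48% to 7.05%), Igkv15-103 (4.61% to 7.53%), Igkv9-124 (4.00% to 6.85%) and Igkv4-72 (4.00% to 6.67%) varied little. Igkv4-61 was at 7.11%, 6.23%, 3.47% and 1.37%, and Igkv1-122 at 4.00%, 4.88%, 1.87% and 4.11%.

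Igkv12-89 was the V gene with the widest gap among these 10. It led 2 of 225 assigned B cells in the GS library, 0.889% (exact 95% interval 0.108% to 3.17%). It led 18 of 369 in the URI library (4.88%, 2.92% to 7.60%), 20 of 375 in WT replicate 1 (5.33%, 3.29% to 8.12%) and 11 of 146 in WT replicate 2 (7.53%, 3.82% to 13.1%). The GS interval lay below those of both WT libraries and overlapped that of the URI library, as counting error alone, and 5 mice in 1 pool leave no spread between animals.

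Over the 28 detected V genes the shares correlated between libraries with a Pearson r of 0.89 to 0.96 and a Spearman rho of 0.69 to 0.93, where the points share probe efficiency. The chance that 2 assigned B cells have the same V gene (Simpson index) was 10.2%, 9.51%, 10.98% and 11.7%. Shares of V genes follow probe efficiency as well as use, so the order of genes is an order of detection.

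**Figure D3:**
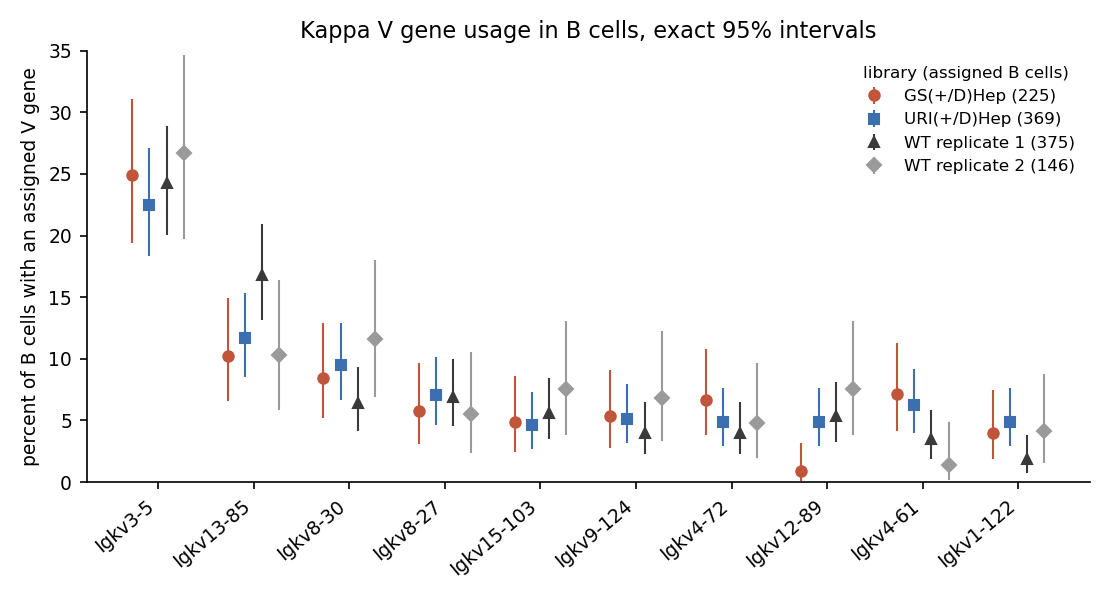
Percent of assigned B cells led by each of 10 kappa V genes, with exact 95% intervals, 1 point per library. Igkv3-5 stood at 22.5% to 26.7% in all 4, and Igkv12-89 was at 0.889% in the GS library against 4.88% to 7.53% in the others.

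In plasma cells V gene UMIs came from few barcodes. Of the 63 large barcodes, 23 had an assigned V gene (6, 8, 4 and 5) and 32 had 0 Igkv UMIs, although 15 of those 32 had at least 1000 Igkc UMIs. By heavy chain, Igha led in 52, Ighm in 5, Ighg2b in 5 and Ighg1 in 1. Some leads rest on few UMIs. Ighm led with 5075 (GS) and 4870 (WT replicate 2) UMIs, but also with 18 (URI, tied with Igha), 33 and 1 (both WT replicate 1). Igha led with as few as 18 (WT replicate 1). Abundant Igkc without any V signal was thus common in plasma cells, and its cause was not tested.

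Single plasma cells held much of several V genes' counts. Of 2379 Igkv4-91 UMIs in the series 1988 (83.6%) came from 1 barcode of WT replicate 2. For Igkv5-43 it was 125 UMIs (69.4%, GS library) and for Igkv6-25 600 (67.0%, URI library). For Igkv4-72 it was 841 (56.9%) and for Igkv8-30 832 (36.0%), both in WT replicate 2. Even Igkv3-5, found in 696 barcodes, had 1005 UMIs (22.8%) in 1 barcode of the URI library. The Igkc count was less concentrated, with 17685 UMIs (5.21%) in its highest barcode, of the GS library and led by Ighg2b.

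The V signal per Igkc differed widely between plasma cells that led with the same V gene. Igkv4-72 was at 1.38 to 2.63 per 100 Igkc UMIs in 4 plasma cells (3 GS, 1 WT replicate 1) and at 39.9 in 1 of WT replicate 2. Igkv8-30 was at 1.99 in a URI cell and 94.7 in a WT replicate 2 cell. Igkv3-5 was alike in both of its cells, at 49.1 (URI) and 40.3 (WT replicate 1). Igkv5-43 stayed between 0.664 and 1.00 in 4 cells of 3 libraries, Igkv6-25 at 6.28 and 8.30, and Igkv4-61 between 9.46 and 20.1 in 3 cells.

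B cells led by the same genes gave a scale for these ratios. Their median was 18.7 for Igkv4-72 (quartiles 12.9 to 26.0, lowest 7.35, 50 cells), 38.1 for Igkv8-30 (75 cells) and 23.6 for Igkv3-5 (251 cells). The 4 low Igkv4-72 plasma cells thus lay below all 50 of these B cells. The B cell values have a floor, since an assignment needs at least 3 V UMIs beside far fewer Igkc UMIs, so low ratios could not be seen there. The cause of the spread among plasma cells was not tested.

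**Figure D4:**
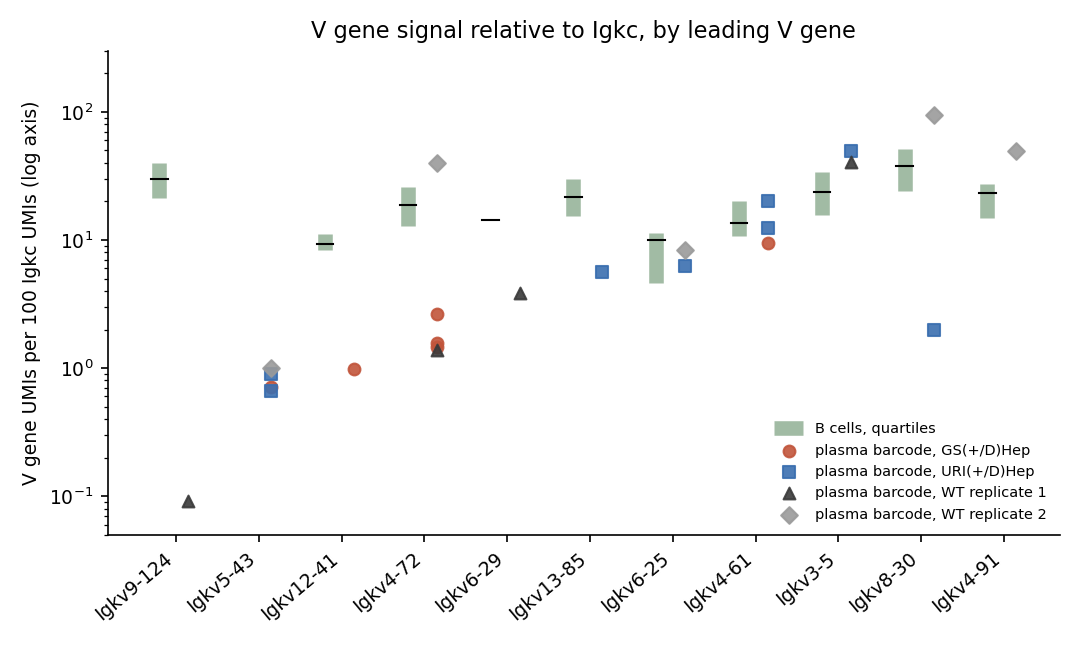
V gene UMIs per 100 Igkc UMIs (log axis) for barcodes led by each V gene, with the B cells' quartiles as bars, their median as a line, and 1 point per plasma cell of at least 5000 UMIs. Igkv4-72 and Igkv8-30 split between low points (1.38 to 2.63, and 1.99) and high points (39.9 and 94.7).

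Of the plasma cells 14 had UMIs of a further V gene, which was of the leading gene's family in 7 and of another family in 7. A GS cell had 311 Igkv4-61 and 13 Igkv4-72 UMIs, a pair 94.6% identical. A URI cell had 96 Igkv8-30 and 10 Igkv8-27 UMIs. Of another family were 600 Igkv6-25 with 56 Igkv8-30 UMIs, and 19 Igkv5-43 with 7 Igkv1-122 UMIs, both in the URI library. These cells were singled out after their values were seen.

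The small plasma barcodes, of under 5000 UMIs, were frequent in the GS and WT replicate 1 libraries and are given here by their light chain make-up. In the GS library all 68 were led by Igha and had 3900 Igkc to 6086 Igha UMIs, a ratio of 0.641 (median per barcode 0.470, quartiles 0.357 to 0.713). In WT replicate 1, 83 of 84 were led by Igha and had 6768 Igkc to 3303 Igha UMIs, a ratio of 2.05 (median 2.13, quartiles 1.79 to 2.36). The large Igha-led plasma cells ranged more widely, from 0.255 to 1.31 in the GS library and from 0.0097 to 72.6 in WT replicate 1. The large Igha-led barcode with the most Igkc had a ratio of 0.651 in the GS library and 2.01 in WT replicate 1. Both values lay close to the summed ratio of the small barcodes there, though in the GS library the median per small barcode was lower, at 0.470. Each of these large barcodes had 0 Igkv UMIs. The match was not particular to them, as 3 large barcodes in the GS library and 2 in WT replicate 1 lay near that ratio. Small barcodes of 1 library may share a source, so they are no replicates, and the difference between the libraries was not tested.

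Their V genes were few as well. Of 21 small GS barcodes with any Igkv UMI, Igkv4-72 led in 19, with 22 UMIs in all. Most of the 78 Igkv UMIs lay elsewhere, 54 of them in 1 barcode led by Igkv6-25 (51 UMIs). Of 37 in WT replicate 1, Igkv12-41 led in 18 and Igkv8-27 in 9. The large GS plasma cells led by Igkv4-72 had ratios of Igkc to Igha of 0.495, 0.603 and 0.255. In WT replicate 1 no large plasma cell was assigned Igkv12-41 or Igkv8-27. Whether large and small barcodes share a source was not tested. Plasma cell markers summed to 9971 and 5379 CPM in the small GS and WT replicate 1 barcodes. T cell markers summed to 2704 and 3574 and neutrophil markers to 3254 and 3458 in the same barcodes, so markers of several cell types occurred together. In T cells of these libraries neutrophil markers were at 2359 and 2525 CPM. The part of free RNA or cell fragments in these barcodes was not tested. Lambda and V gene results for B cells do not use them.

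**Figure D5:**
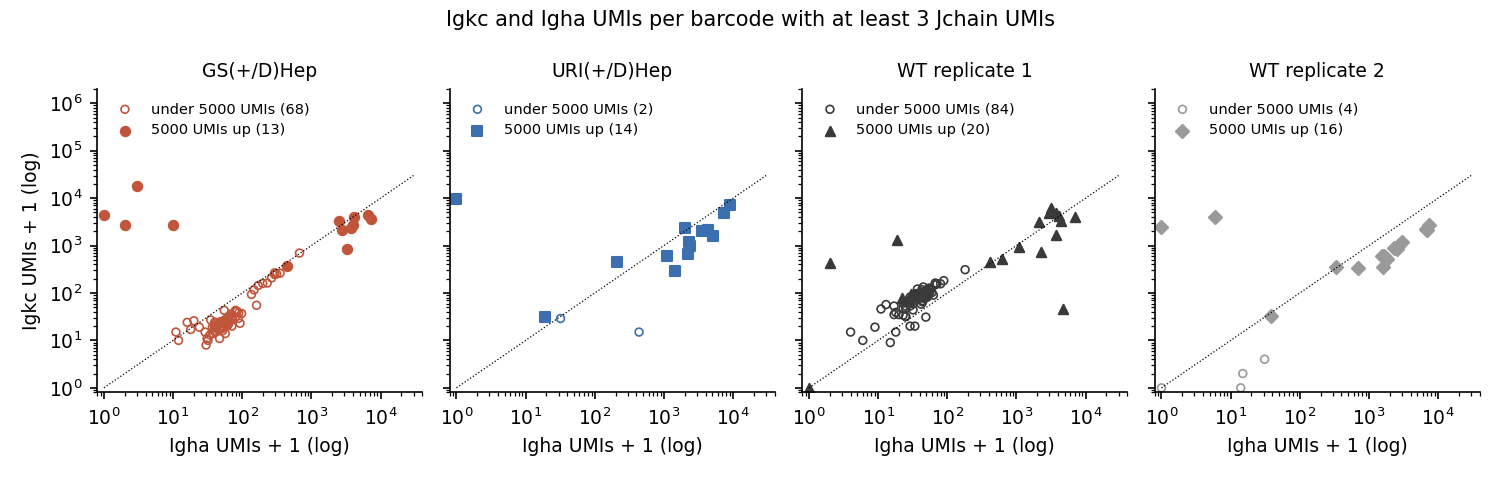
Igkc against Igha UMIs (each plus 1, log axes) for every barcode with at least 3 Jchain UMIs, 1 panel per library, with open points under 5000 UMIs and filled points above. The dotted line marks equal counts, and of the small barcodes 64 of 68 lay below it in the GS library and 79 of 84 above it in WT replicate 1.

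The comparison of each deletion with WT asked whether light chain RNA in liver immune cells differed after loss of 1 copy of the gene in hepatocytes. UMIs were summed per library and class and tested with edgeR's quasi-likelihood test, Benjamini-Hochberg adjusted over all genes tested. With 1 residual degree of freedom, the error was that between the WT libraries, each deletion library was assumed to vary like WT, and p-values measure only the spread between these samples, which may be technical. In summed RNA, fewer cells of a type and less RNA per cell cannot be told apart.

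In B cells 29 light chain genes passed the filter on low counts and 0 were called in either contrast. Of all 11390 genes tested the percent called was 0 for GS and 0 for URI. At an unadjusted p under 0.05 there were 29 genes for GS, 3 of them light chain genes, and 31 for URI, 1 of them a light chain gene. DESeq2 called 1 and 0 genes, none a light chain gene. The light chain genes' median log2 difference from WT was 0.21 for GS and -0.02 for URI, against -0.01 for all genes in both.

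The constant genes lay between the WT libraries in both deletion libraries. The log2 difference of Igkc was 0.15 (SE 0.60) for GS and 0.00 (SE 0.60) for URI. Without WT replicate 1 these were 0.92 and 0.76, and without WT replicate 2 -0.35 and -0.50, values with no test, so the sign followed the WT library used. Iglc1 was at 0.28 (SE 0.48) and -0.04 (SE 0.48), Iglc2 at 0.06 (SE 0.42) and 0.02 (SE 0.42), and Iglc3 at 0.36 (SE 0.50) and -0.13 (SE 0.51).

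The 4 V gene differences with an unadjusted p under 0.05 in B cells were named after their values were seen. Igkv12-89 had levels of 4.46, 26.9, 40.4 and 11.8 CPM, a log2 difference of -2.57 for GS against WT (SE 0.74, unadjusted p = 0.00469, edgeR adjusted p = 1.00). Its GS UMIs came from 4 B cells, 23 of the 35 from 1 of them. Igkv4-91 was at 3.31, 8.25, 22.0 and 7.21 CPM, and 110 of its 200 UMIs in WT replicate 1 came from 1 cell (GS log2 -2.17, SE 0.80, unadjusted p = 0.0199 by edgeR). Igkv7-33 had 0, 9, 18 and 6 UMIs, and 0 of 1738 GS cells allows a share of up to 0.173%. Igkv1-122 was at 13.9, 24.5, 6.605 and 7.71 CPM (URI log2 1.74, SE 0.53, unadjusted p = 0.00680 by edgeR). Its URI UMIs came from 21 cells. None passed the adjusted test.

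In all barcodes 30 light chain genes were tested and again 0 were called. The percent called over 12819 genes was 0 for GS and 0.0156 for URI. Unadjusted p-values under 0.05 were found for 71 and 63 genes, with 6 and 5 light chain genes among them, and DESeq2 called 2 and 5 genes, none a light chain gene. The lowest adjusted p of a light chain gene was 0.882 by edgeR, for Igkv4-91 in the GS contrast. Its UMIs were 28, 113, 202 and 2036, and 1988 of the 2036 in WT replicate 2 were those of the plasma cell above.

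Genes that act around the light chains were read from 6 lists. In B cells 0 members of any list were called in either contrast. The lists were enhancer and promoter factors (15 of 15 tested), recombination and end joining (9 of 11), surrogate light chain (1 of 3, Vpreb3), the receptor complex and its signalling (12 of 12), antibody folding and secretion (15 of 15) and heavy chain constant genes (7 of 8). The medians of the first 5 lists lay between -0.26 and 0.10 on the log2 scale, where Vpreb3 alone gave the -0.26. The heavy chain constant genes had medians of -0.67 (GS) and -0.22 (URI). By edgeR 3 of 7 had an unadjusted p under 0.05 in the GS contrast and 0 in the URI contrast, against 0.255% and 0.272% of all genes tested. The 3 did not share a direction. Ighg2c was at log2 4.78 (114, 6, 1 and 6 UMIs), Ighg1 at -3.55 (4, 57, 71 and 25 UMIs) and Igha at -1.11 (225, 417, 392 and 465 UMIs).

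In all barcodes 1 list member was called by edgeR, Ighg1, an IgG heavy chain gene, in the URI contrast (log2 6.27, SE 0.44, adjusted p = 1.15e-06). Of its UMIs 19224 lay in the URI plasma cell that also held 9550 Igkc and 600 Igkv6-25 UMIs. The call thus rests on 1 barcode of 1 library. Plasma cells were not tested as a class, because 2 libraries held fewer than 50 such barcodes.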

How the data were processed

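The deposited matrices hold UMI counts per gene and barcode, made by the authors with Cell Ranger 8.0.0 and mm10, per the submitters' processing notes. Cells were fixed, hybridised to mouse transcriptome probes and multiplexed, per the labels' protocols. Barcodes of at least 500 UMIs were used. Members and gene lists were chosen with earlier results of these data known.

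Classes, isotype calls and V assignments followed the limits given above. CPM are UMIs per 1000000 of a class and library. Neutrophils had at least 10 UMIs of S100a8 and S100a9, no Cd79a or Cd79b UMI, and were not T cells. Shares have exact Clopper-Pearson 95% intervals, and a count of 0 allows 3 counts. Thinning drew 1000 UMIs per barcode. Scrublet ran per library through scanpy 1.11.5. Its automatic threshold marked 0 barcodes in WT replicate 1, so the highest 5% of scores were taken there (4.64% to 5.00% marked in the libraries). Doublets were removed only as an alternative.

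Sums were tested with edgeR 4.0.16 (TMM, filterByExpr, limma 3.58.1, R 4.3.3) in 1 fit of all 4 libraries at an adjusted p of 0.05, and DESeq2 1.42.0 was the alternative. On simulated counts with 11390 genes, the B cell test recovered 88% of 4-fold and 100% of 16-fold changes. With 12819 genes, the test on all barcodes recovered 82% and 100%. The changed genes were drawn from those above the median level and were all raised, in the GS library. These rates therefore do not describe genes of lower level or decreases. Other tools were python 3.11.15, numpy 2.4.6, scipy 1.17.1, pandas 2.3.3, anndata 0.12.19 and matplotlib 3.10.9.

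Named were all constant and Iglv genes, the 10 Igkv genes with the highest mean share of assigned B cells, the 5 with the most plasma cell UMIs, the 5 with the largest share in 1 barcode among those with at least 100 UMIs, and any called.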

Additional observations from a re-analysis of the deposited data

How the results depend on the processing

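Without the filter on low counts, edgeR called 1 light chain gene in B cells for GS (Igkv12-89, log2 -2.57, adjusted p = 0.0371), 1 in all barcodes for GS (Igkv4-91, log2 -6.07, adjusted p = 2.09e-13) and 2 there for URI (Igkv4-91, log2 -4.45, adjusted p = 1.63e-08, and Igkv4-72, log2 -2.77, adjusted p = 0.0294). In WT replicate 2, 1 plasma cell held 1988 of the 2036 Igkv4-91 UMIs and 1 other held 841 of the 889 Igkv4-72 UMIs. The calls in all barcodes thus rest on single barcodes. The other 23 alternatives for the number of light chain genes called gave 0. Among them were DESeq2, its size factors, a minimum of 1000 UMIs, doublets removed and barcodes of at least 3 Jchain UMIs removed. The lambda share of URI B cells was 4.36% at 80% for an isotype. Over all alternatives it ranged from 4.28% to 6.42% (GS), 4.36% to 7.19% (URI), 3.85% to 5.86% (WT replicate 1) and 2.21% to 4.801% (WT replicate 2). In barcodes of at least 3 Jchain UMIs it ranged up to 6.25% in the URI library and from 0.971% to 5.26% in WT replicate 1, and stayed at 0 in the GS library and WT replicate 2. The share of Igkv3-5 ranged from 21.2% to 25.1%, 19.0% to 23.7%, 22.4% to 25.7% and 24.02% to 28.3% in the order GS, URI, WT replicate 1 and WT replicate 2. The T cell background of Igkc was 20.04%, 21.3%, 14.6% and 13.8% without thinning, and 0.846%, 0.330%, 0.559% and 0.0491% at 3 UMIs or more. Thinned to 500 UMIs it was 3.99% (URI) and 2.53% (WT replicate 2). Majority isotypes, the 5000 UMI limit, V use with no limit on Jchain, removal of Jchain barcodes and the Scrublet threshold were chosen after seeing the data. Leaving out either WT library leaves no residual degrees of freedom, so those fits give values with no test. Tests within plasma cells were not run, with 16 and 20 barcodes in 2 libraries. No paired analysis was possible because the groups share only replicate number 1. V genes were assigned in 6.63% to 15.5% of B cells, and the part of depth in this was not tested.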
